A study of Mus musculus with 13 samples.

Results

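The DNA methylation writers and erasers were followed here as 7 genes: Dnmt1 and Uhrf1, which copy methylation onto new DNA, Dnmt3a and Dnmt3b, which set it on unmethylated DNA, and Tet1, Tet2 and Tet3, which start its removal. They were chosen by gene symbol and not by any measured value, though with earlier results of these data known. They are 7 of the 20689 gene bodies in the table the authors deposited. Each gene body was joined by the CpG island holding its transcription start site (TSS), which 4 of the 7 genes had, and by 50 of the table's 100723 Enh and IS regions, those overlapping the gene body or the 5 kb upstream of it. The 50 comprise 16 Enh and 34 IS regions. The sources used here do not spell out either abbreviation, and both kinds are called elements below.

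Methylation of cytosine in CG pairs is a heritable chromatin mark that often accompanies silent promoters. UHRF1 recognises hemimethylated CG pairs behind the replication fork and brings in DNMT1, which methylates the new strand, whereas DNMT3A and DNMT3B methylate sites with no template. The TET enzymes oxidise 5-methylcytosine to 5-hydroxymethylcytosine and beyond, which leads to loss of the mark by replication or base excision repair. In neural stem and progenitor cells these enzymes are known for their part in the timing of neuron and glia formation.

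The table comes from chromatin immunoprecipitation sequencing (ChIP-seq) of mouse neural stem and progenitor cells, isolated from E14.5 embryos, kept as neurospheres (free-floating colonies) and harvested at passage 5, day 3 of culture. One antibody was against KAT7 (HBO1), a lysine acetyltransferase, and the other against H3K14ac, histone H3 acetylated at lysine 14, which KAT7 deposits. The labels give 13 libraries: 1 KAT7 and 3 H3K14ac libraries from Kat7lox/loxNesCreT/+ cells (Kat7 deleted), 3 KAT7 and 4 H3K14ac libraries from Kat7+/+NesCreT/+ cells (Kat7 intact), and 1 IgG library for each antibody's experiment. Both genotypes carry the Cre transgene, which nestin (Nes) regulatory sequence drives, so deletion in the lox/lox cells is limited to cells in which that transgene was active and their descendants. The table holds 1 merged column per antibody, and which libraries and genotypes were merged is not given in the sources used here. Neither the genotypes nor IgG can therefore be compared at these genes, there is no spread between replicates, and no test between conditions was possible. What can be compared is the KAT7 column with the H3K14ac column, gene by gene and region by region.

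Values are RPKM, reads per kilobase of region, scaled to the read total of the column, with totals of 134111848 reads for KAT7 and 141734087 for H3K14ac. Intervals are exact 95% intervals (Poisson for a level, binomial for the ratio of KAT7 to H3K14ac RPKM). They cover counting error only, so a ratio whose interval excludes 1 differs by more than read sampling in these merged columns and nothing more is shown. The antibodies share no scale. KAT7 higher or lower therefore compares values scaled to the column totals, and says nothing on the amount of KAT7 against that of H3K14ac. By the table's own expression classes, 5 of 10 neural stem and radial glia markers were in the top class (Nes, Sox2, Fabp7, Slc1a3 and Vim), against 1034 of all 20689 genes. None of 4 neuronal, 3 muscle, 3 liver or 4 blood and endothelial markers was in it. Of the 7 members only Dnmt1 was in the top class, and the other 6 were neither top nor bottom.

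Start-site sequences are shown first because most of them overlap the islands and elements described below. RefSeq windows of 300 bases (GRCm38.p6, the build of mm10), from 250 bases before to 50 after a start, were matched for all 7 members and gave 12 windows, since Dnmt1 and Dnmt3a have 3 annotated starts each and Uhrf1 has 2. Letters were searched on both strands. For E2F, factors of S-phase genes, the letters were TTTCGCGC and also TTTGGCGC. For NF-Y they were CCAAT. The GC box bound by SP factors was GGGCGG and the E-box was CACGTG. For ETS factors the word CCGGAAG was used, and for the TATA box TATAAA. Overlapping matches were counted separately, and no ETS or TATA box match was found in the 12 windows. A match only says that these letters are present. The maintenance genes come first, with motif matches in capitals. The Dnmt1 gene body of the table starts at the upstream RefSeq start (window chr9:20959839-20960138, minus strand). A second Dnmt1 start lies 7265 bases downstream of it (chr9:20952574-20952873, minus strand). The Uhrf1 gene body starts at the first of the Uhrf1 windows below (chr17:56303087-56303386, plus strand), and another RefSeq start lies 976 bases downstream (chr17:56304063-56304362, plus strand).
Dnmt1 upstream start: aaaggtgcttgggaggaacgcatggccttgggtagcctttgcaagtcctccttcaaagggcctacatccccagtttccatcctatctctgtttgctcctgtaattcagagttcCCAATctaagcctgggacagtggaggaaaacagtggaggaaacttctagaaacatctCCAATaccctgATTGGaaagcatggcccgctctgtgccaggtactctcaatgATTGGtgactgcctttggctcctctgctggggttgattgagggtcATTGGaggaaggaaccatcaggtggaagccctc
Dnmt1 downstream start: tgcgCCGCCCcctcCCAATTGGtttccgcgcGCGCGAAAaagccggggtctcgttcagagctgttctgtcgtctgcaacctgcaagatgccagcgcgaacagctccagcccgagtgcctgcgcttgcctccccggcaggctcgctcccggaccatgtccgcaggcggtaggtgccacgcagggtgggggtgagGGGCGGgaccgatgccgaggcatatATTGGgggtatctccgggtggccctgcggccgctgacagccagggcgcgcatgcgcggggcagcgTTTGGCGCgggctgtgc
Uhrf1 first start: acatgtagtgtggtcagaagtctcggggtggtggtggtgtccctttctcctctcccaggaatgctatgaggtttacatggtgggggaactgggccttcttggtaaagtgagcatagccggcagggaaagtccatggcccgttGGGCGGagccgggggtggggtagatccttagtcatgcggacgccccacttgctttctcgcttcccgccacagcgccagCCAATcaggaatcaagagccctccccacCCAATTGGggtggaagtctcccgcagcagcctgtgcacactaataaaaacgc
Uhrf1 second start: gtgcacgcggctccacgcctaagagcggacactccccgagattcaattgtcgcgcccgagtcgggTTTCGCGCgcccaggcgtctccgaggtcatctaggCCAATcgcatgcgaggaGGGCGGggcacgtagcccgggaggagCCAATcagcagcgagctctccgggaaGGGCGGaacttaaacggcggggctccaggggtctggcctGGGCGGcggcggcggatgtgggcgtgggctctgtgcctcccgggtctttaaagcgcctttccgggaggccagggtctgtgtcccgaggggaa
The upstream Dnmt1 window overlaps no island or element of the table. It holds 2 CG pairs and 5 CCAAT matches, and the downstream one holds 33 CG pairs, 2 E2F matches, 3 CCAAT matches and 2 GC boxes. At Uhrf1 the first window has 12 CG pairs and no E2F match, and the second has 33 CG pairs, 1 E2F match and 3 GC boxes. E2F letters occur in 0.813% of the 32851 RefSeq promoter windows, CCAAT in 37.4% and GC boxes in 35.7%. The downstream Dnmt1 window and the second Uhrf1 window were the only windows among the members' 12 with E2F letters.

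The start of the de novo enzyme Dnmt3a (chr12:3806730-3807029, plus strand) and that of the eraser Tet2 (chr3:133544341-133544640, minus strand) are shown for their base composition, since both lie in regions described below. In the Dnmt3a window the capitals mark GC boxes, and in the Tet2 window they mark a word of 22 bases that is present in 4 copies.
Dnmt3a start: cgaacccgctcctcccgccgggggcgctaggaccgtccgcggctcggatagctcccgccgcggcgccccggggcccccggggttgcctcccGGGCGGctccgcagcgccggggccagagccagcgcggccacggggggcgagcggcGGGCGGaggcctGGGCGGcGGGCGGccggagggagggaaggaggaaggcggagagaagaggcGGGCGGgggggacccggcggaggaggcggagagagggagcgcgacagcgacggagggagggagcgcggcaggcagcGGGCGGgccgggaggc
Tet2 start: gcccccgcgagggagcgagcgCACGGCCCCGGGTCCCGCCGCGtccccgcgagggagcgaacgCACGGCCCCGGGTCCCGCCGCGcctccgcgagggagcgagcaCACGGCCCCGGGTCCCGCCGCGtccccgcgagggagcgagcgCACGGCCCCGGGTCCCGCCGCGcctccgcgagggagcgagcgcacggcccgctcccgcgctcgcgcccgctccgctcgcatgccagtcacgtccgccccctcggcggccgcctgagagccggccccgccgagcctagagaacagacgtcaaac
The Dnmt3a window is 82.3% G or C with 46 CG pairs and 6 GC boxes. The Tet2 window is 81.3% G or C with 57 CG pairs, more than in 99.8% of promoter windows, where the median is 7. The 4 copies of the Tet2 word start 42 bases apart, from 229 to 103 bases before the start. The windows not printed had 30 CG pairs at Dnmt3b, 22 at Tet3, 17 at Tet1, 12 at the other Dnmt1 start, and 47 and 18 at the other Dnmt3a starts.

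Over gene bodies the genes other than Dnmt3a carried KAT7 near the median of all gene bodies. Of the 7 genes, 4 were above it, but only the interval of Tet1 lay wholly above it. H3K14ac was below its median in all but Uhrf1, though the intervals of Dnmt3b, Tet1 and Tet2 include that median. A gene body was called where the KAT7 value was at least 25% above or at least 20% below the H3K14ac value, and none of the 7 was called in either direction. Among 16439 gene bodies with no bases shared with another gene body, 7.55% were called with KAT7 higher and 2.31% with KAT7 lower. These are gene bodies of any length and were not matched to the members. The members' median level was 0.398 RPKM for KAT7 and 0.372 RPKM for H3K14ac, against 0.398 and 0.379 over all gene bodies. Their median KAT7 to H3K14ac ratio was 1.11, against 1.05 over all gene bodies. The interval of the ratio lay above 1 in 5 of the 7, against 33.6% of all gene bodies and 44.6% of the 6099 of 20 to 108 kb, the members' size range. It lay above the median ratio of all gene bodies in 4 of the 7, against 18.9% of all gene bodies of any length. For that count no share in the members' size range was computed. The interval narrows with more reads, so the 18.9% is not a like background.

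Dnmt1, the maintenance methyltransferase (Entrez 13433, chromosome 9, 20907206 to 20959888, minus strand), had 0.398 RPKM of KAT7 (0.384 to 0.413) and 0.349 RPKM of H3K14ac (0.336 to 0.363). The 2813 KAT7 and 2606 H3K14ac reads behind these values gave a ratio of 1.14 (1.08 to 1.20). Its KAT7 level sat in the middle of all gene bodies, at percentile 50.7, while its H3K14ac level was at percentile 23.5 and at 15.8 among gene bodies of 0.5 to 2 times its length. Uhrf1, which guides DNMT1 to replicating DNA (Entrez 18140, chromosome 17, 56303337 to 56323486, plus strand), had 0.390 RPKM of KAT7 (0.366 to 0.414) and 0.388 RPKM of H3K14ac (0.365 to 0.412). Its ratio was 1.00 (0.922 to 1.09), the lowest of the 7, and its H3K14ac level was the highest of the 7, at percentile 58.9. The ratio intervals of these maintenance genes overlapped.

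Of the de novo enzymes, Dnmt3b (Entrez 13436, chromosome 2, 153649454 to 153687730, plus strand) had 0.386 RPKM of KAT7 (0.369 to 0.403) and 0.376 RPKM of H3K14ac (0.360 to 0.393), with a ratio of 1.03 (0.964 to 1.09). Dnmt3a (Entrez 13435, chromosome 12, 3806980 to 3914443, plus strand) had 0.299 RPKM of KAT7 (0.290 to 0.308) and 0.256 RPKM of H3K14ac (0.248 to 0.264), the lowest of the 7 in both columns. How far the way of counting lowers these values was not tested. Of the Dnmt3a gene body, 31409 bases (29.2%) are shared with the antisense gene Dnmt3aos and with a gene that has no symbol in the annotation used, and reads in bases shared by gene bodies are counted for none of them. The levels were also computed with all its reads set over the 76055 unshared bases, which takes that counting rule as given. They were then 0.422 RPKM of KAT7 (0.410 to 0.435) and 0.361 RPKM of H3K14ac (0.350 to 0.373). That puts KAT7 at percentile 74.8 and H3K14ac at percentile 32.4. The ratio, which the shared length does not touch, was 1.17 (1.12 to 1.22), the highest of the 7, and its interval did not overlap that of Dnmt3b.

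The erasers had similar values. Tet1 (Entrez 52463, chromosome 10, 62804570 to 62880014, minus strand) had 0.417 RPKM of KAT7 (0.404 to 0.430) and 0.374 RPKM of H3K14ac (0.363 to 0.386), a ratio of 1.11 (1.07 to 1.16). Tet2 (Entrez 214133, chromosome 3, 133463677 to 133544390, minus strand) had 0.400 RPKM of KAT7 (0.388 to 0.412) and 0.372 RPKM of H3K14ac (0.361 to 0.383), a ratio of 1.08 (1.03 to 1.12). Tet3 (Entrez 194388, chromosome 6, 83362373 to 83441678, minus strand) had 0.408 RPKM of KAT7 (0.396 to 0.421) and 0.366 RPKM of H3K14ac (0.355 to 0.377), a ratio of 1.12 (1.07 to 1.16). All 3 intervals of the ratio lay above 1 and overlapped each other.

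**Figure D1:**
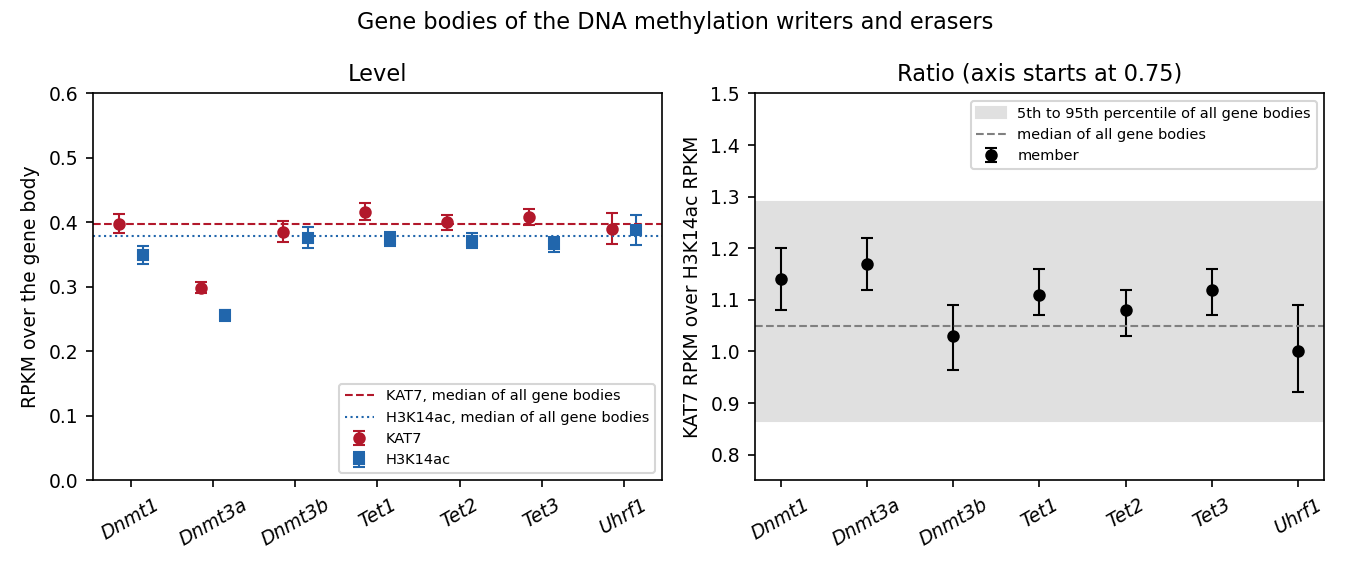
KAT7 and H3K14ac RPKM over the gene body of each of the 7 genes, with exact 95% Poisson intervals and the medians of all gene bodies, and beside it the ratio with exact 95% binomial intervals and the 5th to 95th percentile of all gene bodies in grey. Apart from Dnmt3a, whose gene body is partly shared with other genes, KAT7 runs from 0.386 to 0.417 RPKM and H3K14ac from 0.349 to 0.388 RPKM.

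Put in order of KAT7 level over the gene body, the genes ran Tet1, Tet3, Tet2, Dnmt1, Uhrf1, Dnmt3b and Dnmt3a, and the intervals of all neighbours overlapped except those of Dnmt3b and Dnmt3a. For H3K14ac the order was Uhrf1, Dnmt3b, Tet1, Tet2, Tet3, Dnmt1 and Dnmt3a, again with overlap between all neighbours except Dnmt1 and Dnmt3a. With its reads set over its unshared bases alone, Dnmt3a would head the KAT7 order and stand between Tet3 and Dnmt1 in the H3K14ac order. Its KAT7 interval would then overlap those of all other members except Dnmt3b, and its H3K14ac interval those of all other members. Taking off the Enh regions that lie wholly inside the gene bodies left the ratios at 0.998 to 1.18.

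CpG islands at the starts showed a wider spread than gene bodies, and Tet3 had the highest H3K14ac level, followed by Uhrf1. None of the 4 islands that hold the table's TSS was past a 1.5-fold difference in either direction. Among 13240 islands near a TSS, 20.2% had KAT7 at least 1.5-fold higher than H3K14ac and 9.98% at least 1.5-fold lower. The median ratio was 0.894 over the 4 members and 1.07 over all islands.

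The Tet3 island (chromosome 6, 83441466 to 83441729) had 0.794 RPKM of KAT7 (0.528 to 1.15) and 1.18 RPKM of H3K14ac (0.858 to 1.58), from 28 and 44 reads. Both were high for a CpG island, at percentile 94.7 for KAT7 and percentile 99.4 for H3K14ac. The interval of the ratio of 0.673 (0.403 to 1.1) includes 1. The Uhrf1 island (chromosome 17, 56303224 to 56304503), which overlaps both Uhrf1 windows printed above, had 0.548 RPKM of KAT7 (0.443 to 0.671) and 0.701 RPKM of H3K14ac (0.584 to 0.834). Its H3K14ac was at percentile 87.0 and its ratio was 0.782 (0.593 to 1.03).

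The Tet2 island (chromosome 3, 133544178 to 133545117), on the CG-rich window printed above, was of middling level, with 0.469 RPKM of KAT7 (0.357 to 0.604) and 0.466 RPKM of H3K14ac (0.357 to 0.597). The Dnmt3b island (chromosome 2, 153649431 to 153649930) was low in both, with 0.314 RPKM of KAT7 (0.194 to 0.480) and 0.297 RPKM of H3K14ac (0.184 to 0.454), or percentiles 10.4 and 17.8. In H3K14ac the intervals of Tet3 and Uhrf1 lay wholly above that of Dnmt3b, and that of Tet3 also lay above those of Uhrf1 and Tet2. In KAT7 the Tet3 interval lay wholly above that of Dnmt3b, while the intervals of Uhrf1, Tet2 and Dnmt3b overlapped.

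Dnmt1, Tet1 and Dnmt3a had no island at the TSS of the table. For Dnmt1 and Tet1 an island lies at another RefSeq start instead. The Dnmt1 island (chromosome 9, 20952560 to 20953008), on the downstream window printed above, had 0.316 RPKM of KAT7 (0.190 to 0.494) and 0.283 RPKM of H3K14ac (0.168 to 0.448), both near the level of the Dnmt3b island. Dnmt1 was the one member in the top expression class. The Tet1 island (chromosome 10, 62886788 to 62887349), upstream of the table's gene body, had 0.532 RPKM of KAT7 (0.380 to 0.724) and 0.579 RPKM of H3K14ac (0.424 to 0.772).

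**Figure D2:**
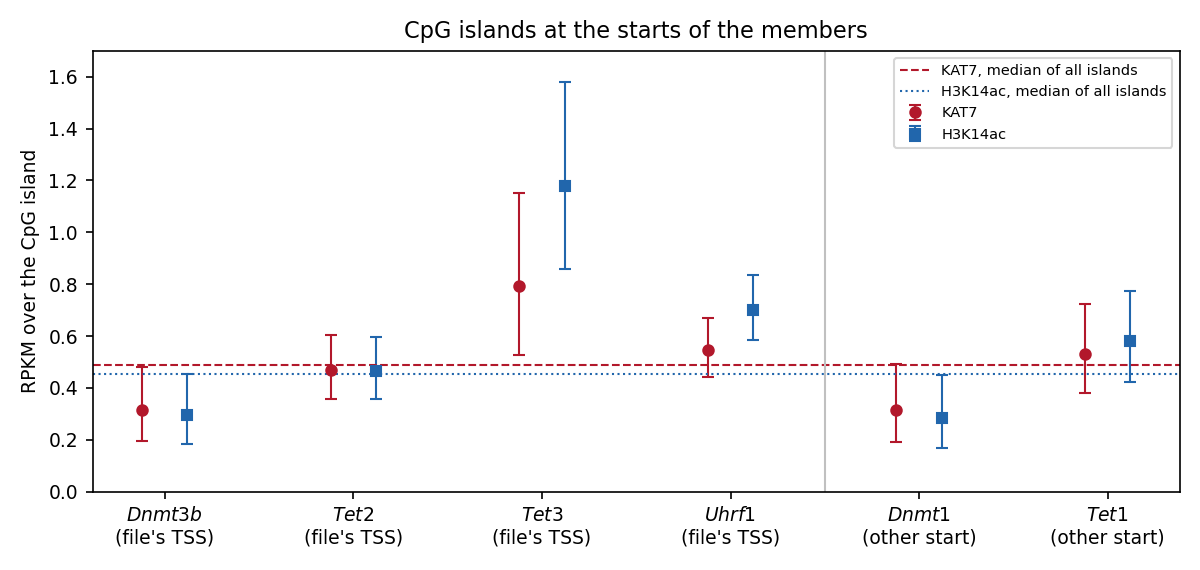
KAT7 and H3K14ac RPKM over the CpG islands at the starts of the members, with exact 95% Poisson intervals and the medians of all islands near a TSS as horizontal lines. Right of the vertical line are islands at another RefSeq start. Tet3 is the highest in both columns, at 0.794 RPKM of KAT7 and 1.18 RPKM of H3K14ac.

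For Dnmt3a the start itself was low in KAT7. Its 2001-base promoter window (chromosome 12, 3804980 to 3806980) had 0.280 RPKM of KAT7 (0.220 to 0.351) and 0.325 RPKM of H3K14ac (0.262 to 0.398), against medians of 0.408 and 0.377 RPKM over all promoter windows. The KAT7 value is at percentile 4.99 and that of H3K14ac at percentile 21.2. An Enh region over the same start (chromosome 12, 3806443 to 3808980) had 0.262 RPKM of KAT7 (0.210 to 0.322) and 0.214 RPKM of H3K14ac (0.169 to 0.268), percentiles 3.08 and 1.87 among Enh regions of the same class and of similar length. The sequence there is very rich in G and C, as printed above. A share of 80% or more G or C in the RefSeq start window was met by 80 promoter windows. Their median was 0.377 RPKM of KAT7 and 0.340 RPKM of H3K14ac. Of them, 5.00% were at or below Dnmt3a in KAT7, against 5.02% of all 5539 windows compared. Dnmt3a meets this limit itself. The share was taken over the start window, which is shorter than the 2001-base promoter window and only partly inside it. Whether base composition lowers the KAT7 value at Dnmt3a was therefore not tested. The promoters of Dnmt3b and Uhrf1 were close to the medians, at 0.388 and 0.406 RPKM of KAT7 and at 0.342 and 0.356 RPKM of H3K14ac. Windows of minus-strand genes hold no reads in the table, so the promoters of Dnmt1 and the TET genes were not analysed here.

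The 50 elements were not shifted as a set towards either column, but single elements of Tet3, Uhrf1, Tet2 and Dnmt3a were. Of the 40 elements with at least 20 reads in both columns together, 7 (17.5%) had KAT7 at least 1.5-fold higher than H3K14ac and 4 (10.0%) had it at least 1.5-fold lower. Over all 72697 such elements the shares were 16.5% and 13.4%, so the members' counts are near the background. The interval of the ratio excluded 1 in 7 of these 11, and in 30.9% of the 21742 past the fold among all such elements. These shares were not matched for reads or length. KAT7 was above the median of elements of the same class and similar length in 27 of the 50, and so was H3K14ac in 27 of the 50. Enh and IS regions overlap each other and the islands, so they share reads and are not independent.

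Uhrf1 held the element with the highest H3K14ac level of the 50. Within the island, 476.5 bases after the first start, an IS region of 110 bases (chromosome 17, 56303759 to 56303868) had 1.23 RPKM of KAT7 (0.730 to 1.95) and 2.59 RPKM of H3K14ac (1.85 to 3.53), from 18 and 40 reads. The H3K14ac value was at percentile 99.8 of IS regions of its class and of similar length, and KAT7 at percentile 94.8, so both were high and the ratio was 0.476 (0.257 to 0.849). The IS region just before the first start (chromosome 17, 56303202 to 56303330) had 0.990 RPKM of KAT7 (0.577 to 1.59) and 0.496 RPKM of H3K14ac (0.227 to 0.942), a ratio of 2.00 (0.842 to 5.08), whose interval includes 1. Farther in, 14811.5 bases after the start, an IS region (chromosome 17, 56318100 to 56318197) had 0.461 RPKM of KAT7 and 1.38 RPKM of H3K14ac, from 6 and 19 reads, a ratio of 0.334 (0.109 to 0.869). Around the second start, whose window carries the E2F letters, 2 overlapping elements had 0.480 and 0.497 RPKM of KAT7, and 0.206 and 0.141 RPKM of H3K14ac. Each had fewer than 20 reads, and they and the other elements with few reads named below were chosen after their values were seen.

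Dnmt1, the partner of UHRF1, had 4 elements, and none of the 3 with at least 20 reads was past the fold. The IS region 193 bases after its downstream start had 0.616 RPKM of KAT7 (0.371 to 0.962) and 0.890 RPKM of H3K14ac (0.596 to 1.28), a ratio of 0.692 (0.367 to 1.28). An Enh region over that start (chromosome 9, 20952022 to 20953327) had 0.417 RPKM of KAT7 (0.327 to 0.524) and 0.476 RPKM of H3K14ac (0.382 to 0.586). In each pair the KAT7 and H3K14ac intervals overlapped.

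Dnmt3a, the longest gene body of the 7, had the most elements, 16. Of the 13 with enough reads, 4 (30.8%) were past the fold with KAT7 higher and 0 with KAT7 lower. Over all such elements the shares were 16.5% and 13.4%, and whether Dnmt3a differs from them was not tested. The interval excluded 1 in 2 of the 4. The Enh region 59735.5 bases after the start (chromosome 12, 3866449 to 3866982) had 0.699 RPKM of KAT7 (0.519 to 0.922) and 0.384 RPKM of H3K14ac (0.257 to 0.551), a ratio of 1.82 (1.13 to 2.99). KAT7 was at percentile 97.3 and H3K14ac at percentile 33.8 of Enh regions of its class and of similar length. That class is named as near a TSS, though the region's middle lies at -25028.5 bases from the nearest RefSeq start of Dnmt3a. Which TSS the class refers to was not examined. The IS region 1170 bases after the start had 0.742 RPKM of KAT7 (0.532 to 1.01) and 0.428 RPKM of H3K14ac (0.277 to 0.632), a ratio of 1.73 (1.03 to 2.97). The other 2, at 1.08 and 1.11 RPKM of KAT7 and 0.655 and 0.600 RPKM of H3K14ac, had ratio intervals that include 1. The first of these is also in a class named as near a TSS, though far from any RefSeq start of Dnmt3a. The lowest Dnmt3a element of both columns with at least 20 reads was the Enh region over the start, described above.

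Dnmt3b had 5 elements, all within 1 kb of its start, and none past the fold with enough reads. The best covered, an IS region 770.5 bases after the start, had 33 reads in each column, 0.667 RPKM of KAT7 (0.459 to 0.936) and 0.631 RPKM of H3K14ac (0.434 to 0.886). An Enh region 161 bases after the start (chromosome 2, 153649540 to 153649690) had 10 KAT7 reads and 1 H3K14ac read, a ratio of 10.6 with a counting interval of 1.5 to 459.

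Tet3 held the most uneven element. An IS region of 112 bases 37289.5 bases after the start (chromosome 6, 83404333 to 83404444) had 1.61 RPKM of KAT7 (1.03 to 2.40) and 0.127 RPKM of H3K14ac (0.0154 to 0.459), from 24 and 2 reads. The ratio was 12.7 (3.15 to 111), with KAT7 at percentile 99.3 and H3K14ac at percentile 2.03 of IS regions of its class and of similar length. The region lies next to a CpG island far from any TSS (chromosome 6, 83404465 to 83404724), which had 0.892 RPKM of KAT7 (0.606 to 1.27) and 0.463 RPKM of H3K14ac (0.270 to 0.741), a ratio of 1.93 (1.03 to 3.71). Both lie inside an interval that the table lists as an H3K9me3 domain, a class of regions named for a mark of silent chromatin (chromosome 6, 83395438 to 83407438). That domain had 0.426 RPKM of KAT7 (0.394 to 0.459) and 0.352 RPKM of H3K14ac (0.325 to 0.382). Its ratio of 1.21 (1.08 to 1.35) is at percentile 97.3 of such domains, whose median ratio is 1.00, and it shares reads with the 2 smaller regions.

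At the Tet3 start both columns were high. An IS region 303.5 bases after the start (chromosome 6, 83441296 to 83441453) had 1.23 RPKM of KAT7 (0.807 to 1.81) and 1.80 RPKM of H3K14ac (1.28 to 2.45), at percentiles 95.5 and 98.8, with a ratio of 0.687 (0.402 to 1.15). An Enh region 28503 bases after the start (chromosome 6, 83413100 to 83413250) had 0.249 RPKM of KAT7 and 0.800 RPKM of H3K14ac, from 5 and 17 reads, a ratio of 0.311 (0.0897 to 0.878). Another, 17763 bases after the start, had 1.09 RPKM of KAT7 and 0.659 RPKM of H3K14ac, a ratio of 1.66 (0.812 to 3.51).

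Tet2 had 1 element past the fold among 5, with KAT7 lower. This IS region (chromosome 3, 133544583 to 133544754), centred at -278.5 bases from the start, had 0.262 RPKM of KAT7 (0.0960 to 0.569) and 0.866 RPKM of H3K14ac (0.536 to 1.32), from 6 and 21 reads, a ratio of 0.302 (0.0997 to 0.773). Of its 172 bases, 58 lie in the window printed above with the repeated word. The next IS region upstream had 0.746 RPKM of KAT7 (0.491 to 1.08) and 0.523 RPKM of H3K14ac (0.319 to 0.807), and its intervals overlapped those of the element before it. Tet1 had 3 elements, and neither of those with at least 20 reads was past the fold. The best covered, an Enh region (chromosome 10, 62864953 to 62866950), had 0.489 RPKM of KAT7 (0.409 to 0.580) and 0.470 RPKM of H3K14ac (0.393 to 0.557).

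**Figure D3:**
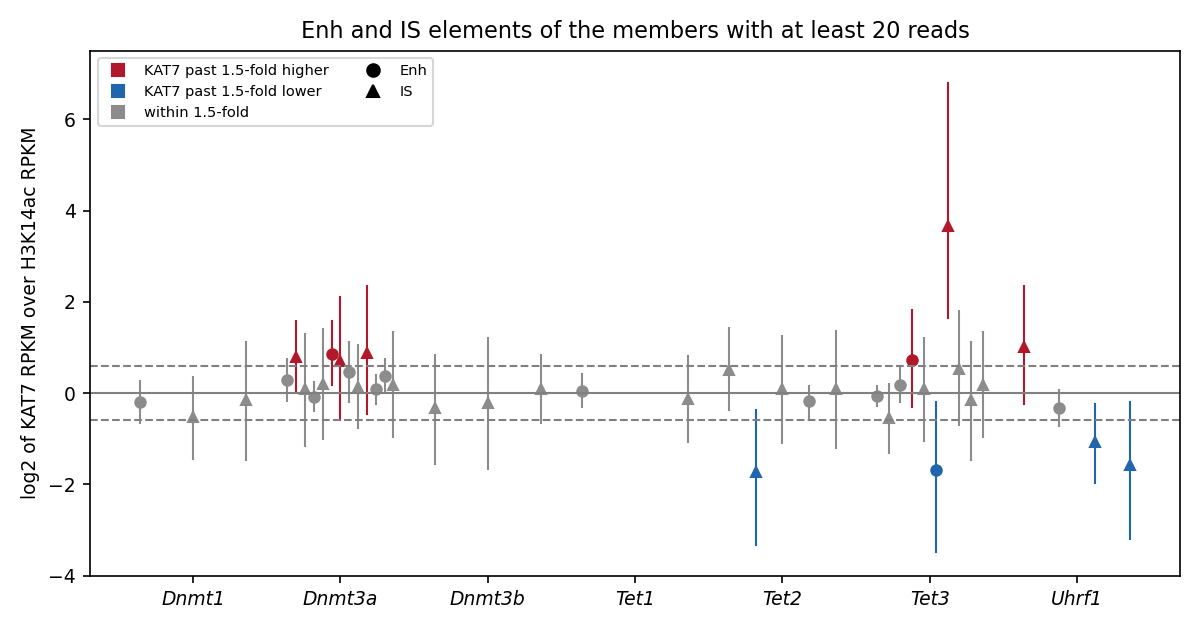
Log2 of the KAT7 to H3K14ac ratio for the elements of each member with at least 20 reads, with exact 95% binomial intervals and dashed lines at 1.5-fold. The Tet3 element at a ratio of 12.7 stands far above the others, and the Uhrf1, Tet2 and Tet3 elements with ratios of 0.302 to 0.476 lie lowest.

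Whether elements near a start carried more reads than farther ones depended on the gene and on how near was defined. The 17 elements centred within 1 kb of the table's TSS had 0.461 RPKM of KAT7, against 0.488 RPKM in the 33 farther ones, a ratio of 0.945 (0.864 to 1.03). The same near elements had 0.488 RPKM of H3K14ac, against 0.442 RPKM in the farther ones, a ratio of 1.1 (1.01 to 1.20). Far here means far from that TSS of the member alone. The far Uhrf1 element and several far Dnmt3a elements are in classes that the table names as near a TSS. Reads of an IS region inside an Enh region enter these sums more than once. The intervals for both kinds together, here and for single genes below, are therefore too narrow. Taking any RefSeq start of the gene in place of the table's TSS, a choice made after seeing the data, made 23 elements near. The near-to-far ratio was then 0.890 (0.815 to 0.971) for KAT7 and 1.01 (0.924 to 1.1) for H3K14ac. With the limit at 500 bases from the table's TSS, the KAT7 ratio was 1.1, on the other side of 1. Within 1 kb of the table's TSS, IS regions alone gave 0.965 (0.800 to 1.16) for KAT7 and 1.27 (1.06 to 1.52) for H3K14ac, and Enh regions alone gave 0.953 (0.860 to 1.05) and 1.07 (0.971 to 1.19).

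By the table's TSS, 4 genes had both near and far elements, and the H3K14ac ratio was below 1 in 3 of them. The near-to-far ratio at Tet3 was 0.901 (0.761 to 1.07) for KAT7 and 1.19 (1.00 to 1.41) for H3K14ac. At Uhrf1, with 1 far element, it was 1.39 (0.625 to 3.86) for KAT7 and 0.533 (0.331 to 0.905) for H3K14ac. Tet2, also with 1 far element, had a KAT7 ratio of 0.668 (0.373 to 1.32) and an H3K14ac ratio of 0.797 (0.446 to 1.57). At Dnmt3a the only element near the table's TSS is the low Enh region over it, and KAT7 had a ratio of 0.546 (0.433 to 0.681) and H3K14ac one of 0.520 (0.405 to 0.659). By any RefSeq start, 4 Dnmt3a elements were near, with a KAT7 ratio of 0.716 (0.617 to 0.830) and an H3K14ac ratio of 0.612 (0.520 to 0.718).

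**Figure D4:**
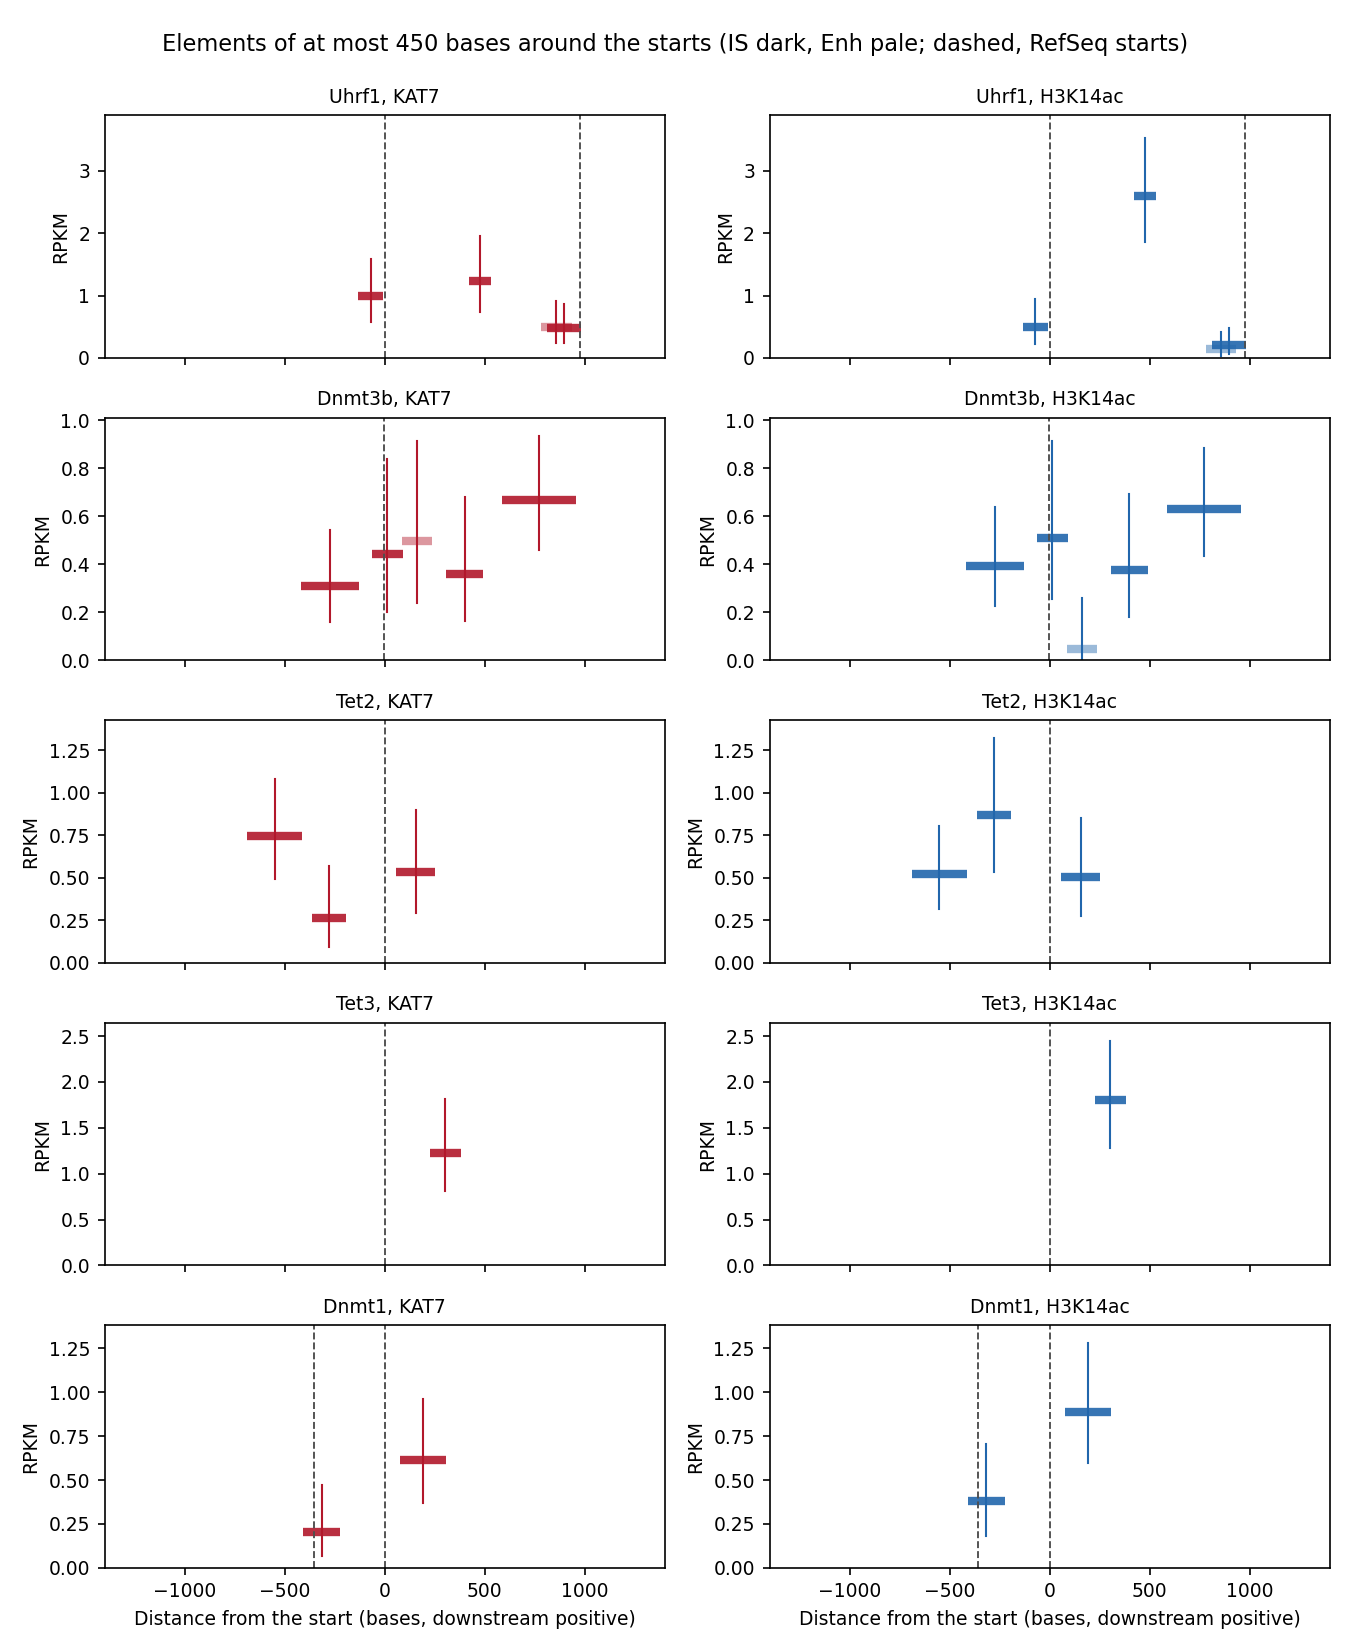
KAT7 and H3K14ac RPKM of the short elements around the starts of Uhrf1, Dnmt3b, Tet2, Tet3 and Dnmt1, with exact 95% Poisson intervals, by distance from the start in bases (for Dnmt1, from the downstream RefSeq start). The highest short regions, at Uhrf1 and Tet3, have 1.23 RPKM of KAT7 each, and 2.59 and 1.80 RPKM of H3K14ac.

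Other genes of the pathway were taken as a list of 44 readers, cofactors, base excision enzymes and partners, of which 42 are in the table. Of the 34 usable gene bodies, 7 (20.6%) were called with KAT7 higher and 0 with KAT7 lower, where 7.55% and 2.31% of all gene bodies did. The median ratio of the list was 1.1, against 1.05 over all gene bodies. The list was not matched to the members in length, and each of its 7 called gene bodies was shorter than any member's. The 6 with the highest lower bound were Trim28, Mbd4, Mbd1, Nthl1, Cxxc1 and Gadd45b. Trim28, a corepressor that recruits the histone methyltransferase SETDB1, had 0.502 RPKM of KAT7 and 0.347 RPKM of H3K14ac, a ratio of 1.45 (1.26 to 1.67). Mbd4, a DNA glycosylase with a methyl-CpG binding domain, had 0.464 RPKM of KAT7 and 0.353 RPKM of H3K14ac, a ratio of 1.31 (1.18 to 1.46). The ratio was 1.27 (1.15 to 1.40) for the reader Mbd1, 1.30 (1.11 to 1.52) for the glycosylase Nthl1, 1.30 (1.09 to 1.56) for Cxxc1, whose protein binds unmethylated CG pairs, and 1.42 (1.08 to 1.85) for Gadd45b.

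At the list's 25 usable islands, 6 (24.0%) had KAT7 at least 1.5-fold higher and 2 (8.0%) at least 1.5-fold lower, close to the 20.2% and 9.98% of all islands. Usp7, a deubiquitinase that protects DNMT1 and UHRF1, had 0.461 RPKM of KAT7 and 0.264 RPKM of H3K14ac, a ratio of 1.75, with the interval above 1. The others higher in KAT7 were Gadd45b at 1.80 (1.21 to 2.72), Cxxc1 at 1.84 (1.12 to 3.07), Nthl1 at 1.69 (1.09 to 2.66), Mbd4 at 1.72 (0.944 to 3.23) and Setdb1 at 1.52 (0.768 to 3.08). Lower in KAT7 was Idh2, which makes the 2-oxoglutarate that TET enzymes consume, with 0.508 RPKM of KAT7 and 0.951 RPKM of H3K14ac, a ratio of 0.534 (0.368 to 0.766), and the reader Mbd2 had a ratio of 0.656 (0.343 to 1.22). Gadd45b, Cxxc1, Nthl1 and Mbd4 were past the fold in both gene body and island, where the island over the TSS shares bases with the gene body.

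**Figure D5:**
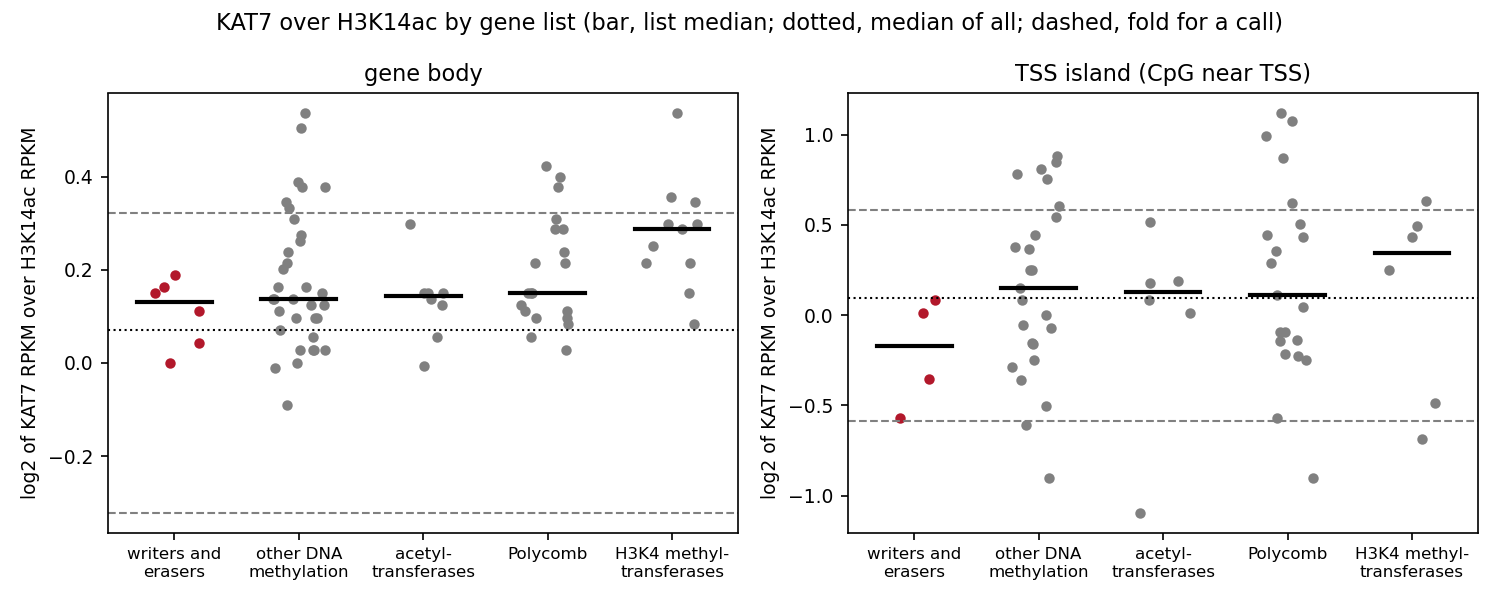
Log2 of the KAT7 to H3K14ac ratio of gene bodies and of TSS islands for the members and for the lists of other genes, each point a gene and each bar a list median. The ratios of the members' gene bodies lie between 1.00 and 1.14 without Dnmt3a, whose bases are partly shared, and no member's island is past 1.5-fold.

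The genes most like each member were sought by Euclidean distance over 4 log2 RPKM values (KAT7 and H3K14ac, gene body and TSS island) among 8132 genes. Tet3 had few close neighbours, with 7 genes within a distance of 0.25, and the nearest was Spred2 at 0.172, with an island at 0.793 RPKM of KAT7 and 1.07 RPKM of H3K14ac. The nearest gene was Zwint for Tet2 (0.0232, with 653 genes within 0.25), Osbpl2 for Uhrf1 (0.0629, with 331 genes) and Tm7sf3 for Dnmt3b (0.0907, with 143 genes). Counting error was not taken into these distances. The Tet3 island holds 28 KAT7 and 44 H3K14ac reads and the Dnmt3b island 21 of each, so the order of neighbours may rest on read sampling.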

How the data were processed

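ChIP-seq with antibodies against KAT7 and H3K14ac was carried out on mouse neural stem and progenitor cells. Per the file headers, the authors deposited 1 table of regions with a read count and an RPKM value for 1 merged column per antibody. Per the submitters' processing notes the build was mm10 and the tools were Bowtie2, SAMtools, Picard, deepTools and featureCounts; the sources used here give no versions, order or correction of the alignments before counting. Each deposited RPKM value is the count over end minus start and over the column total, within a relative tolerance of 1e-06, and the deposited counts of reads in bases shared by regions of one class are assigned to neither region. No value per library could be used, so no test between genotypes or with IgG was made.

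From these values the ratio of KAT7 to H3K14ac RPKM was computed with exact binomial intervals and levels with exact Poisson intervals (Python 3.11.15, SciPy 1.17.1, pandas 2.3.3), after testing on simulated data. A region was called at a difference of 25% upwards or 20% downwards for gene bodies and at 1.5-fold for islands and elements, elements with at least 20 reads. Backgrounds and percentiles used regions with no shared bases, a mean of at least 0.1 RPKM and neither column above 5 RPKM. Gene symbols and promoter sequences are from RefSeq (GRCm38.p6), and 96.7% of the table's genes had a symbol. Members, gene lists and thresholds were chosen with earlier results of these data known. Named were the 7 members, their elements with the highest lower bounds and up to 4 past the fold, up to 6 list genes per direction by the bound nearest 1, and the gene nearest to each member. Other folds, read minimums, scalings, windows and backgrounds were tried.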

Additional observations from a re-analysis of the deposited data

How the results depend on the processing

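No result with a call changed direction under any alternative run. With a fold of 1.1, 4 members' gene bodies had KAT7 higher, against 0 at the limit used, and so did 17 gene bodies of the other DNA methylation genes, against 7. With the gene body limits applied to islands, KAT7 was lower at 2 members' islands, and with the ratio divided by its median over all islands at 1, against 0 at 1.5-fold; for the other DNA methylation genes the islands came to 10 higher and 4 lower, against 6 and 2. With no read minimum 13 elements were higher and 7 lower, and with a minimum of 50 reads 2 and 1, against 7 and 4. Keeping gene bodies with shared bases in the background put 2 members above the H3K14ac median, against 1. Above the KAT7 median were 3 members with autosomes alone and 5 with Dnmt3a over its unshared bases, against 4. Within 500 bases the near-to-far ratio was 1.1 for KAT7, against 0.945 within 1 kb, and 1.46 for H3K14ac, against 1.1, with 1.27 in IS regions alone and 1.01 where any RefSeq start counted. The cause was not tested. No paired analysis was possible because the merged columns carry no replicate numbers, and for the same reason no replicate could be left out. Most single elements rest on fewer than 50 reads a column, which limits what their ratios can show.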

Other observations

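Other chromatin writers gave a comparison for the members' gene bodies, where 0 of 7 had KAT7 25% or more above H3K14ac. Of 11 H3K4 methyltransferase genes, 3 (27.3%) had it higher: Men1 at a ratio of 1.45 (1.24 to 1.71), Kmt2b at 1.28 (1.17 to 1.40) and Setd1b at 1.27 (1.17 to 1.38), with a list median of 1.22. Of 20 usable Polycomb gene bodies 3 (15%) had it higher, Cbx2 at 1.30 (1.13 to 1.49), Phf1 at 1.32 (1.09 to 1.59) and Pcgf1 at 1.34 (1.05 to 1.72), and the list median was 1.11. Of 8 usable acetyltransferase gene bodies 0 were past the fold in either direction, with a list median of 1.1. Over all gene bodies 7.55% had KAT7 higher. None of these shares was matched to the members in length. Of the gene bodies named here with KAT7 higher, all but Setd1b were shorter than any member's, so 0 of 7 cannot be read as a trait of the members.

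At islands, 5 of 21 Polycomb genes (23.8%) had KAT7 at least 1.5-fold higher, near the 20.2% of all islands, among them Ezh1 at 2.11 (1.36 to 3.34), Cbx6 at 2.17 (1.22 to 3.97) and Pcgf3 at 1.99 (1.20 to 3.37). Among 6 H3K4 methyltransferase islands 1 was higher, Kmt2a at a ratio of 1.55 (1.20 to 2.01). At least 1.5-fold lower in KAT7 were 1 of 21 Polycomb, 1 of 6 acetyltransferase and 1 of 6 H3K4 methyltransferase islands, against 9.98% of all islands. They were Ring1, the E3 ligase of Polycomb complex 1, at 0.534 (0.417 to 0.680), the acetyltransferase gene Kat5 at 0.468 (0.286 to 0.747), and Setd1a at 0.622 (0.429 to 0.892). Post-TES windows of 3 members were not past those limits: the ratio was 0.831 (0.636 to 1.08) at Dnmt3a, 0.903 (0.685 to 1.19) at Dnmt3b and 1.22 (0.912 to 1.63) at Uhrf1.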
